A study of Mus musculus with 10 samples.

Results

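Fibroblast growth factor (FGF) receptors, FGF ligands and FGF homologous factors were compared between mouse medulloblastoma and the cerebellar tissue beside it. The members were 9 genes, taken as every probe set annotated to 1 of them alone: the receptors Fgfr1, Fgfr2 and Fgfr3, the ligands Fgf1, Fgf2 and Fgf9, and the homologous factors Fgf12, Fgf13 and Fgf14. They had 23 of 45137 probe sets, 15 of 22626 on the Affymetrix 430A chip and 8 of 22511 on 430B. Every animal carried the CAGGS-CreER and R26-SmoM2 alleles and was given tamoxifen on postnatal day 10 (1 mg for every 40 g of mouse), so the cerebellum samples, which the labels name wild type, share alleles and drug with the tumours. SmoM2 is an always active form of Smoothened, which switches on Hedgehog signalling, and CreER recombines DNA once tamoxifen is present. CAGGS is a broadly active promoter, and the cells that recombined, the strain, the age at collection and whether tumour and cerebellum came from the same animals are not stated. Each chip held 3 medulloblastoma and 2 cerebellum arrays, which the titles call biological replicates.

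FGF receptors are tyrosine kinases of the cell surface that dimerise when an FGF and a heparan sulphate chain bind, and they signal through FRS2, RAS and the MAP kinases. The secreted ligands pattern the early cerebellum and act between neurons and glia later on, and FGF2 is known to hold back the division of granule neuron precursors driven by Sonic hedgehog. The homologous factors share the fold of the ligands but lack a signal peptide and stay in the cell, where they bind the tail of voltage-gated sodium channels. Fgf14 is known in the cerebellum for its part in the firing of Purkinje and granule neurons, and its loss causes an ataxia.

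No member rose in medulloblastoma. The homologous factors Fgf12 and Fgf14 fell on each of their probe sets, the receptor Fgfr3 and the ligand Fgf1 fell on each probe set that was tested, and Fgfr1 and Fgfr2 fell on some of theirs. Fgf9 and Fgf13 did not pass the test, and Fgf2 was too dim to be tested. In limma, with Benjamini-Hochberg adjustment over each chip and a limit of 0.05, 9 member probe sets of 430A and 4 of 430B were lower in medulloblastoma. Among all tested probe sets 19% were lower on 430A and 9.77% on 430B, while 13.1% and 7.85% were higher. The dimmest 25% of probe sets by mean were not tested, which removed 4 member probe sets and left 19. Of those 19, 3 passed only through their cerebellum values, namely Fgf12 1436432_at, Fgf14 1435747_at and Fgf14 1447480_at, so the count over members that passed carries no weight of its own. Over all members, tested or not, all 3 tumours read below both cerebellum samples in 11 of 15 probe sets on 430A and 6 of 8 on 430B, against 27.6% and 21.9% of all probe sets of these chips. With no filter, 13 of the 23 were lower and none higher, against 14% of all probe sets lower on 430A and 6.58% on 430B. The median log2 fold change over all 23 was -0.79, against -0.02 over all probe sets of the chips. All values below are deposited intensities, and each fold change is a difference of means of log2(intensity + 16), which understates the change of dim probe sets.

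**Figure D1:**
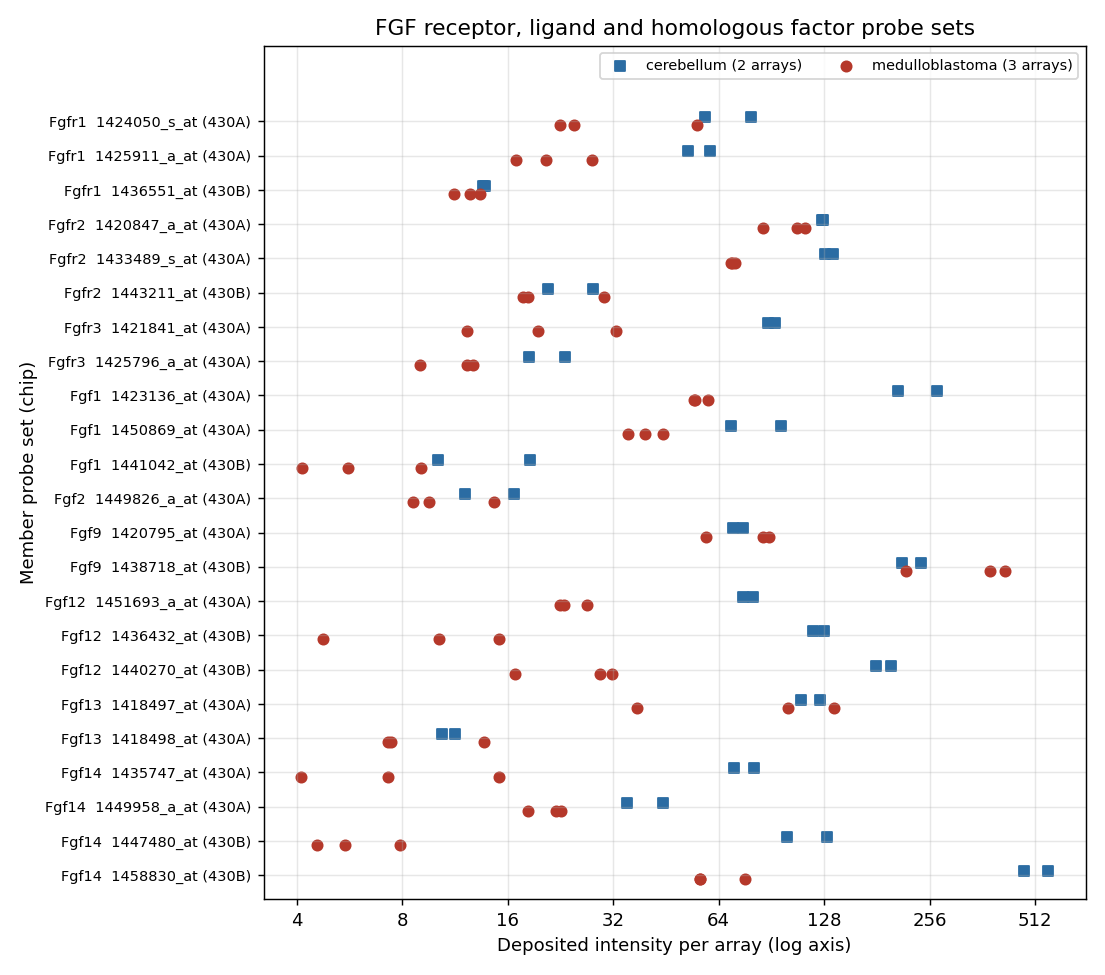
Deposited intensity of each of the 23 member probe sets on every array (log axis), with blue squares for the 2 cerebellum arrays and red circles for the 3 medulloblastoma arrays of the chip named in brackets. All tumour values lie below both cerebellum values in 17 of the 23, against 24.8% of all probe sets of both chips, while those of both Fgf9 probe sets overlap with them.

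The arrays were alike in median intensity, which lay between 33.3 and 35.9 on 430A and between 22.5 and 24.01 on 430B. On the 100 probe sets that both chips hold, the mean log2 value was 8.06 and 8.01 for medulloblastoma 1 and 2 of 430B and 7.47 for medulloblastoma 3, with 7.58 and 7.69 in the cerebellum samples. Scaling the arrays on those probe sets moved the median log2 fold change of all tested probe sets from -0.05 to 0.12 on 430A and from -0.02 to -0.23 on 430B. Higher calls then made up 57.5% of calls on 430A in place of 40.9%, and 29.3% on 430B in place of 44.6%. Smo itself read 60.9, 81.2 and 59.4 in the tumours, against 39.3 and 37.3 in cerebellum, but whether its probe sets detect the SmoM2 transcript is not given. The labels do not say that a number on 430A and on 430B marks the same tumour, so no sample was followed from chip to chip. RNA came from pieces of tissue, where fewer cells of a type and less RNA per cell cannot be told apart.

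Promoter windows of 3 of the genes that fell, Fgf14, Fgf12 and Fgfr3, are shown because these members were lower together. Each sequence is the 250 bases before an annotated start, from RefSeq on GRCm38.p6, written 5′ to 3′ along the gene. Capitals mark the GC box GGGCGG on either strand and, in Fgf14, GACCACCC.
Fgf14 (chr14:124192547-124192796, minus strand): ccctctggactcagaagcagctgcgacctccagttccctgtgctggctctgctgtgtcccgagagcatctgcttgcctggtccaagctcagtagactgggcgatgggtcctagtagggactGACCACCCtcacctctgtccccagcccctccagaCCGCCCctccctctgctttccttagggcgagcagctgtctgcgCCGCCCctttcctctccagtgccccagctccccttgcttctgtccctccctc
Fgf12 (chr16:28753244-28753493, minus strand, the outermost of 4 annotated starts): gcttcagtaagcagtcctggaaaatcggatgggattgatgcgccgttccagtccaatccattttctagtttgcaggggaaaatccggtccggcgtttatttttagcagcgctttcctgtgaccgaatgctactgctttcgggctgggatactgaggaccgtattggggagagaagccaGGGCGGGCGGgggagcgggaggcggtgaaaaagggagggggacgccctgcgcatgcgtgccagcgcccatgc
Fgfr3 (chr5:33721474-33721723, plus strand, the first of 2 annotated starts): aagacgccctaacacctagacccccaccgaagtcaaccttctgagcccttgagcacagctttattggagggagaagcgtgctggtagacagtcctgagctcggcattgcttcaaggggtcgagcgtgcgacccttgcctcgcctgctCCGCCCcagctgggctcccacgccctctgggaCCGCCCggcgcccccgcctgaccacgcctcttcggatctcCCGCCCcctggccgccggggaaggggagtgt
The Fgf14 window holds 2 GC boxes, the Fgf12 window 2 that overlap and the Fgfr3 window 3, and 32.74% of 32851 windows of this length hold at least 1. GC content was 64% in the Fgf14 window, 58.4% in that of Fgf12 and 66.8% in that of Fgfr3, against a median of 52.4%. The ratio of observed to expected CpG was 0.298, 0.887 and 0.694 in that order, against a median of 0.374 over all windows. So the Fgf14 window was poor in CpG for its GC content while the Fgf12 window was rich. The consensus site of the GLI factors, GACCACCCA, was found in none of the windows used for the members, on either strand. No window of Fgfr1 or Fgf1 was used. Among all windows 0.23% hold this consensus. Its first 8 letters, a search added after the Fgf14 window had been read, occur once in that window and in 0.7% of all windows. A match in letters is a description and not a site, and the arrays do not say which start was used.

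Among the receptors, Fgfr3 changed the most. Fgfr3, a receptor of astrocytes and their precursors in the brain, read 12.3, 19.6 and 32.7 in the tumours, against 88.8 and 92.4 in cerebellum with the probe set 1421841_at. All tumours lay far below both cerebellum samples, and medulloblastoma 3 was the highest of the tumours. The mean was 21.5 ± 10.3 in medulloblastoma (SD, n = 3) and 90.6 ± 2.60 in cerebellum (SD, n = 2), which is 4.21 times as high in cerebellum. The log2 fold change was -1.54 ± 0.21 (SE), with an adjusted p of 2e-04 in limma. A second probe set, 1425796_a_at, was dim at 12.3, 8.99 and 12.7 in the tumours, against 18.5 and 23.3 in cerebellum. It was left out by the filter, and its values also did not overlap.

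Fgfr1, the receptor of neurons and neural stem cells as well as glia, was lower on both of its 430A probe sets. The probe set 1425911_a_at read 27.9, 20.7 and 16.9 in the tumours, against 52.4 and 60.6 in cerebellum. The groups stood apart, with a log2 fold change of -0.95 ± 0.17 (limma adjusted p = 0.00107). The probe set 1424050_s_at read 24.7, 55.4 and 22.5 against 58.5 and 79.0. Here medulloblastoma 2 came within a few units of the lower cerebellum sample, and the log2 fold change was -0.80 ± 0.25 (limma adjusted p = 0.0307). That call ended when cerebellum 1 (adjusted p = 0.0547), cerebellum 2 (0.225), medulloblastoma 1 (0.118) or medulloblastoma 3 (0.105) was left out of the limma fit, after quantile normalization (0.0509), with no filter (0.0588) and after scaling on the shared probe sets (0.07). Over all alternatives it ranged from 2.68e-04 to 0.225. The 430B probe set 1436551_at lay near the limit of the filter in every sample, between 11.2 and 13.8, and gave -0.07 ± 0.14 (limma adjusted p = 0.805).

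Fgfr2, a receptor of glia, gave a result that depended on the probe set. The probe set 1433489_s_at read 69.8, 71.1 and 69.2 in the tumours, against 129 and 136 in cerebellum. The tumours were within 2 units of each other and well under both cerebellum samples, and the log2 fold change was -0.79 ± 0.17 (limma adjusted p = 0.00467). Without cerebellum 2 the log2 fold change was -0.75 and the adjusted p of limma 0.0616. The probe set 1420847_a_at read 113, 107 and 85.8 against 127 and 126. All tumours were lower there too, but the log2 fold change of -0.28 ± 0.19 did not pass (limma adjusted p = 0.304). The 430B probe set 1443211_at was dim and overlapped, at 18.3, 17.7 and 30.1 against 20.9 and 28.1, with -0.10 ± 0.17 (limma adjusted p = 0.765).

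Whether the receptors differed from each other in their response was tested on the difference of log2 values within each array, with 1425911_a_at for Fgfr1, 1420847_a_at for Fgfr2, which did not itself pass, and 1421841_at for Fgfr3. Between Fgfr2 and Fgfr3 the fold changes differed by 1.26, with p = 0.2 in the exact permutation test over 5 arrays, two-sided. Fgfr1 against Fgfr2 differed by -0.66 with p = 0.1 in the exact test and Fgfr1 against Fgfr3 by 0.60 with p = 0.3. With 3 arrays against 2 the test cannot go below 0.1, and over 6 pairs of receptors or homologous factors every p adjusted to 0.3 in the exact permutation test. None of these pairs was shown to differ.

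**Figure D2:**
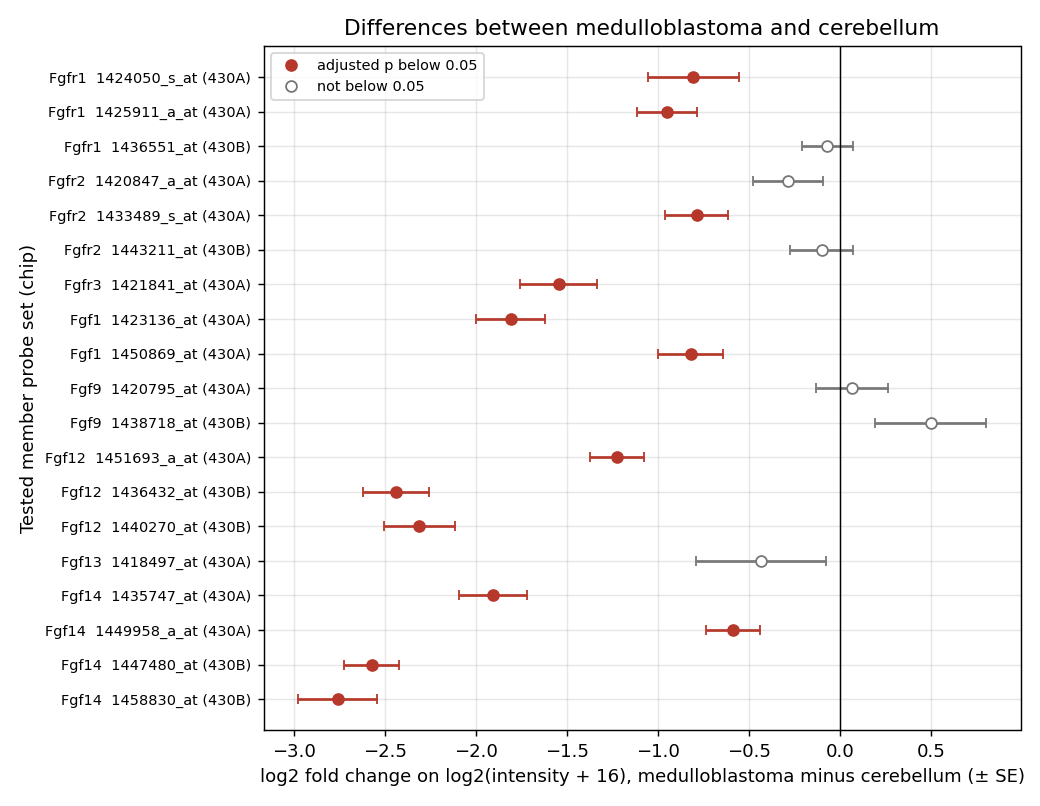
Log2 fold change of medulloblastoma minus cerebellum on log2(intensity + 16), with its standard error, for the 19 member probe sets that were tested. Red filled points had an adjusted p below 0.05 in limma and open points did not. The 430B probe sets of Fgf14 (-2.76 and -2.57) and Fgf12 (-2.44 and -2.31) lie farthest to the left, and no filled point lies to the right of 0.

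Of the ligands, Fgf1 was lower in the tumours. Fgf1, an FGF that binds every FGF receptor and leaves cells by an unusual route, read 59.6, 54.9 and 54.5 in the tumours, against 208 and 269 in cerebellum with the probe set 1423136_at. The tumours were alike and the cerebellum samples were 4.24 times as high on average. The means were 56.3 ± 2.84 (SD, n = 3) and 239 ± 42.9 (SD, n = 2), and the log2 fold change was -1.81 ± 0.19 (limma adjusted p = 2.98e-05). A second 430A probe set, 1450869_at, read 44.4, 39.4 and 35.3 against 69.3 and 96.7, a log2 fold change of -0.82 ± 0.18 (limma adjusted p = 0.00441). Its cerebellum values lay apart, and without cerebellum 2 it had -0.62 with an adjusted p of 0.0841 in limma. The probe set of 430B was left out by the filter, at 4.14, 5.61 and 9.05 against 10.2 and 18.6.

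Fgf9, a ligand that neurons of the cerebellum make and that acts on Bergmann glia, did not fall. The 430B probe set 1438718_at read 420, 380 and 219 in the tumours, against 242 and 213 in cerebellum. Medulloblastoma 1 and 2 were above both cerebellum samples and medulloblastoma 3 lay between them. The log2 fold change was 0.50 ± 0.31 (limma adjusted p = 0.33). Without medulloblastoma 3 it was 0.77 with an adjusted p of 0.0041 in limma, and over all alternatives the adjusted p ran from 5.14e-04 to 0.7. Medulloblastoma 1 and 2 were also the 430B arrays with the higher mean on the shared probe sets. After scaling on those the log2 fold change was 0.29 (limma adjusted p = 0.556). The 430A probe set 1420795_at overlapped, at 85.9, 59.1 and 88.9 against 70.3 and 75.2, with 0.07 ± 0.20 (limma adjusted p = 0.841). Fgf2, the basic FGF that supports neural stem cells and is found in astrocytes, read 14.6, 9.53 and 8.61 in the tumours, against 12.1 and 16.6 in cerebellum with its only probe set, 1449826_a_at. The groups overlapped, and the filter left this probe set out.

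The largest differences among the members were those of Fgf14 and Fgf12 on 430B. Fgf14 was lower on each of its 4 probe sets. The brightest, 1458830_at on 430B, read 56.5, 76.3 and 56.7 in the tumours, against 477 and 558 in cerebellum. The tumours lay close together and far below cerebellum, with means of 63.1 ± 11.4 (SD, n = 3) and 517 ± 56.9 (SD, n = 2), a ratio of 8.19. The log2 fold change was -2.76 ± 0.22 (limma adjusted p = 1.81e-05). The other 430B probe set, 1447480_at, read 5.48, 7.90 and 4.58 against 130 and 101. Its tumour values were near the bottom of the chip, so the log2 fold change of -2.57 ± 0.15 (limma adjusted p = 5.59e-06) depends on the added 16 and was -4.07 with an added 1. The probe set passed the filter only through cerebellum, and with no filter its limma adjusted p was 3.95e-05. On 430A the probe set 1435747_at read 7.31, 4.12 and 15.1 against 80.7 and 70.7, a log2 fold change of -1.91 ± 0.19 (limma adjusted p = 1.88e-05). This probe set too passed the filter only through cerebellum. The fourth, 1449958_a_at, changed less, at 21.95, 22.8 and 18.3 against 44.4 and 35.0, and had -0.59 ± 0.15 (limma adjusted p = 0.0112). Its call ended without cerebellum 1, where the log2 fold change was -0.46 (limma adjusted p = 0.129), and after scaling on the shared probe sets (adjusted p = 0.0783).

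Fgf12, which like Fgf14 tunes the inactivation of sodium channels, was lower on all 3 of its probe sets. On 430B, 1440270_at read 31.7, 29.4 and 16.8 in the tumours, against 199 and 180 in cerebellum. All tumours were far below, with means of 25.9 ± 8.02 (SD, n = 3) and 189 ± 13.4 (SD, n = 2), and the log2 fold change was -2.31 ± 0.20 (limma adjusted p = 3.16e-05). The probe set 1436432_at read 10.2, 15.1 and 4.76 against 128 and 119, with -2.44 ± 0.18 (limma adjusted p = 1.36e-05), and with an added 1 in place of 16 it had -3.61. It passed the filter only through cerebellum, and with no filter its limma adjusted p was 9.05e-05. On 430A, 1451693_a_at read 23.2, 22.6 and 26.9 against 75.1 and 80.4. The log2 fold change there was -1.22 ± 0.15 (limma adjusted p = 8.71e-05), and the spread within each group was small beside the gap.

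Fgf13, a homologous factor of migrating young neurons that also binds microtubules, varied between tumours. The probe set 1418497_at read 37.4, 137 and 101 in the tumours, against 124 and 110 in cerebellum. Medulloblastoma 1 was well under the others, and medulloblastoma 2 was above both cerebellum samples. The log2 fold change was -0.43 ± 0.36 (limma adjusted p = 0.41), and without medulloblastoma 1 it was 0.0097 (limma adjusted p = 0.984). The second probe set, 1418498_at, was left out by the filter and read 7.28, 7.45 and 13.7 against 10.4 and 11.4. Between Fgf12 (1451693_a_at) and Fgf13 the fold changes differed by -0.79, with p = 0.3 in the exact permutation test. The pairs with Fgf14 are not given, since 1435747_at read under the limit of the filter in every tumour.

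Genes with the most similar profile were taken as those with the smallest Euclidean distance between centred log2 values over the 5 arrays of 430A, among 9675 other genes. Nearest to Fgf14 was Oxr1, at a distance of 0.0677 log2 units, then Washc2 (0.179) and Ccn3 (0.222). The probe set used for Fgf14 was 1435747_at, which read under the limit of the filter in every tumour. Its profile depends on the value added before the log, so these 3 distances carry no weight of their own. Nearest to Fgf12 were Cox6b1 (0.0659), Smpx (0.0873) and Rasa3 (0.0911). For Fgfr3 these were Slc6a20a (0.101), Mfsd6 (0.193) and Armcx1 (0.228), and for Fgfr1 Cdc42ep4 (0.109), Hmox2 (0.126) and Tcte1 (0.155). For Fgfr2, with the probe set 1420847_a_at that changed little and did not pass the test, they were Tifa (0.0431), Chac1 (0.0442) and Ikzf4 (0.0753). Fgf13 had no near neighbour, with the closest, Hdc, Cic and Kmt2c, at 0.384, 0.439 and 0.446.

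The rest of the FGF pathway, as 6 lists of 105 genes with 1 probe set per gene, held 77 tested genes, of which 10 were higher and 24 lower. Over all 14103 tested genes 10.9% were higher and 16.4% lower, with a median log2 fold change of -0.05. Without cerebellum 1 the pathway count was 6 higher and 18 lower, and without cerebellum 2 it was 7 and 17. The lists were of unequal make-up, and the sodium channels and partners had the lowest median. Of the lower genes, Fgf7, Fgf11, Fosl1, Scn1a, Scn4b and Sptbn4 had a tumour mean under the limit of the filter. Of the higher genes, Fgfrl1 had a cerebellum mean under it. The pooled counts therefore carry no weight of their own.

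Among 16 other FGF ligands 6 were bright enough to be tested, 2 were lower and none higher, with a median log2 fold change of -0.33. One was Fgf11, the remaining homologous factor, which read 5.20, 13.5 and 10.2 in the tumours, against 25 and 43.5 in cerebellum. Its log2 fold change was -0.96 ± 0.19 (limma adjusted p = 0.00277). The other was Fgf7, a ligand of mesenchymal and meningeal cells that also organises synapses, at 11.5, 17.2 and 16.8 against 51.8 and 55.1 and a log2 fold change of -1.16 ± 0.15 (limma adjusted p = 1.3e-04). With either cerebellum array left out only 1 of the 6 was lower, since Fgf11 was then too dim to be tested. Both had a tumour mean under the limit of the filter and passed it only through cerebellum, so the count of 2 carries no weight of its own. The ligands of early cerebellar patterning, Fgf8, Fgf15, Fgf17 and Fgf18, were all left out by the filter.

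Of 26 co-receptors, heparan sulphate proteins and their enzymes on the chips, 23 were tested, 4 were higher and 5 lower, with a median of 0.01. Of the 4 higher genes, Fgfrl1 had a cerebellum mean under the limit of the filter. Sdc4, a heparan sulphate carrier of the cell surface, read 20.8, 39.8 and 33.4 in the tumours, against 218 and 79.7 in cerebellum. Its log2 fold change was -1.68 ± 0.32 (limma adjusted p = 0.00192), and the cerebellum samples lay far from each other. Flrt2, an adhesion protein that binds FGF receptors and guides axons, rose, from 72.1 and 55.8 in the cerebellum samples to 256, 211 and 164, a log2 fold change of 1.49 ± 0.23 (limma adjusted p = 0.00147). Without cerebellum 2 it no longer passed (limma adjusted p = 0.0502). Hs6st2, an enzyme that adds sulphate to heparan chains, had -1.46 ± 0.19 and Flrt3 -0.77 ± 0.24 (limma adjusted p = 1.47e-04 and 0.0492). The Flrt3 call was lost in 7 of 15 alternatives, among them equal array medians, no filter and leaving out cerebellum 1, cerebellum 2 or medulloblastoma 2, with an adjusted p of up to 0.277 in limma. Without cerebellum 1 this list had 1 higher and 2 lower, and without cerebellum 2 it had 2 and 2.

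Of 16 measured genes that carry the signal inward 15 were tested, 3 were higher and 3 lower, with a median of -0.13. Map2k1, the kinase that activates the ERK proteins, read 87.6, 73.9 and 86.3 in the tumours, against 329 and 331 in cerebellum, a log2 fold change of -1.81 ± 0.19 (limma adjusted p = 2.88e-05). The RAS gene Nras had 1.02 ± 0.19 (limma adjusted p = 0.00149). The RAS exchange factor Sos2 had -0.92 ± 0.17 and the adaptor Grb2 -0.88 ± 0.24 (limma adjusted p = 0.00168 and 0.0165). Grb2 was not called without cerebellum 2 or medulloblastoma 1.

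Of 14 feedback inhibitors of the pathway 12 were tested, 3 were lower and none higher, with a median of -0.13. Spry3 read 19.8, 23.1 and 20.2 in the tumours, against 83.7 and 107 in cerebellum, and had -1.58 ± 0.15 (limma adjusted p = 6.86e-05). Spry2, which FGF signalling induces, read 84.8, 98.7 and 122 against 208 and 176, with -0.83 ± 0.21 (limma adjusted p = 0.0103). Spred1 had -0.64 ± 0.21 (limma adjusted p = 0.0398) and lost its call after quantile normalization, equal array medians or scaling on the shared probe sets and without cerebellum 1, cerebellum 2 or medulloblastoma 1. Without cerebellum 1 only 1 of these genes, Spry3, was lower. After scaling on the shared probe sets, and without medulloblastoma 2, 1 gene of the list was higher.

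Of 10 measured genes listed as FGF-responsive or related, 2 were higher and 4 lower, with a median of -0.20. Of the 4 lower genes, Fosl1 had a tumour mean under the limit of the filter and passed it only through cerebellum. The higher ones, Mycn (2.87 ± 0.23) and Ccnd1 (2.64 ± 0.20), are also targets of the Hedgehog pathway. Fos, an immediate early gene of ERK signalling, had -2.25 ± 0.22 and Pea15a, an ERK-binding protein of astrocytes, -1.51 ± 0.26, all 4 with a limma adjusted p of 0.00104 or lower. The ETS factors Etv4 and Etv5 had -0.26 ± 0.17 and -0.05 ± 0.16 and did not pass (limma adjusted p = 0.273 and 0.844).

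Several sodium channel genes read lower in the tumours. Of 12 sodium channel genes and partners on the chips 11 were tested, 7 were lower and 1 higher, with a median log2 fold change of -1.63. Scn2a, a pore subunit of the axon, read 42.3, 42.5 and 36.3 in the tumours, against 1039 and 1123 in cerebellum. Scn1a, another pore subunit, read 11.4, 10.4 and 16.8 against 338 and 341. Their log2 fold changes were -4.28 ± 0.19 and -3.63 ± 0.17, and those of the beta subunits Scn2b and Scn4b were -3.17 ± 0.19 and -2.78 ± 0.15, with a limma adjusted p of 5.59e-06 or lower in each. Scn2b rests on 1 of its 2 tested probe sets. Of the 7 lower genes 3, Scn1a, Scn4b and Sptbn4, had a tumour mean under the limit of the filter and passed it only through cerebellum. The count of 7 and the median therefore carry no weight of their own. Over all tested genes 16.4% were lower and 10.9% higher. Scn3b, a beta subunit, rose from 32.8 and 23.7 in cerebellum to 62.5, 69.9 and 80.0, a log2 fold change of 0.98 (limma adjusted p = 0.00112). Nfasc, Ank3 and Scn3a did not pass.

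**Figure D3:**
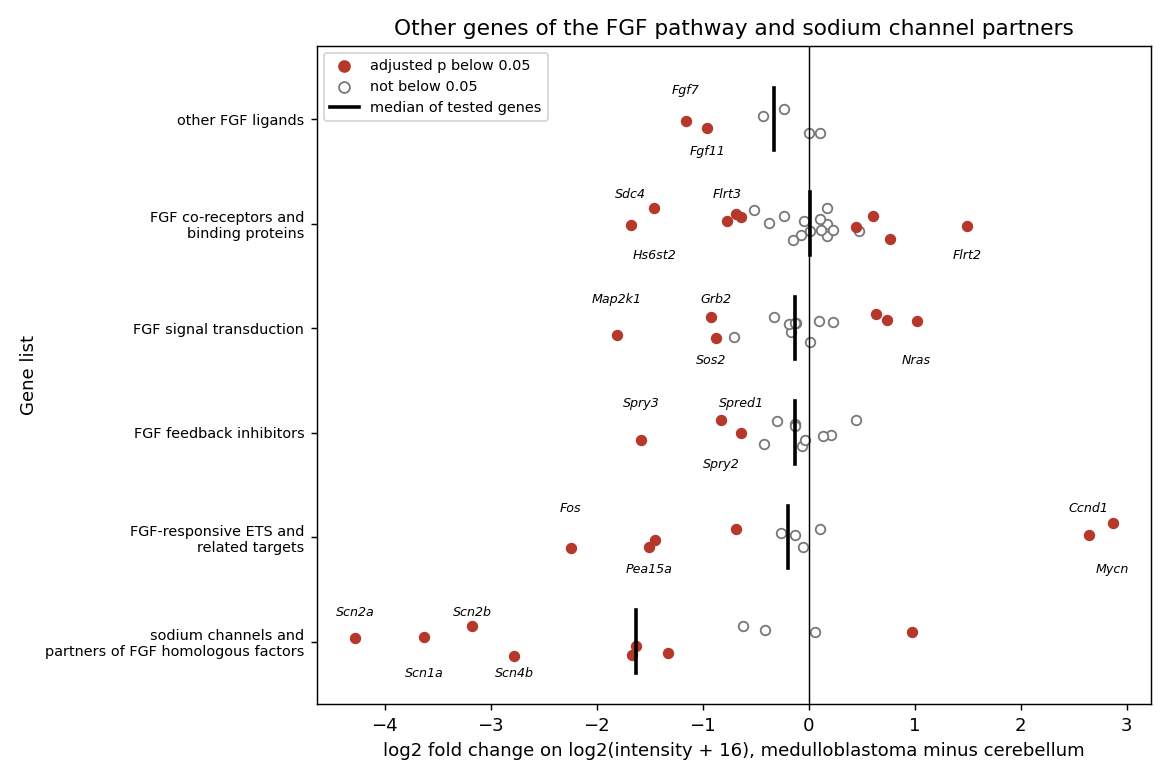
Log2 fold change of medulloblastoma minus cerebellum for every tested gene of the 6 pathway lists, 1 representative probe set per gene. Filled points had an adjusted p below 0.05 in limma, bars are list medians and the named genes are those given in the text. The bar of the sodium channel list lies at -1.63 and those of the other 5 lists between -0.33 and 0.01. Fgf7, Fgf11, Fosl1, Scn1a, Scn4b and Sptbn4 passed the filter only through cerebellum, and Fgf5 and Fgfrl1 only through the tumours.

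Markers of several cell types were read in the same arrays, and some of the lists held genes that moved in both directions. Summed over the genes of each list on 430A, mature granule neuron markers had 839 to 1317 units of intensity in the tumours and 10557 to 11792 in the cerebellum samples, and 11 of 11 tested fell. Purkinje cell markers had 254 to 519 units against 13788 to 17689, and 8 of 8 fell. Bergmann glia and astrocyte markers had 1310 to 2227 units against 8785 to 10254, with 9 of 12 lower and 1, Sox9, higher. Oligodendrocyte markers had 962 to 1437 units against 4326 to 5307, with 6 of 11 lower and 3 higher. The 3 higher genes were Pdgfra, Olig2 and Olig1, with log2 fold changes of 2.58, 1.27 and 1.14. Without Mbp, which made up 69.4% of the cerebellum sums, the list had 922 to 1322 units against 1318 to 1634, which overlap. Meningeal and fibroblast markers had 551 to 872 units against 3388 to 4164, with 1 of 8 lower and 1 higher. Ptgds alone made up 87.6% of the cerebellum sums, and without it the list had 478 to 683 units in the tumours against 419 to 521, which overlap. No marker of these lists was at the floor of 1 in all tumours. Of markers of dividing granule neuron precursors 8 of 9 rose and 1, Zic1, fell, with 3675 to 5204 units against 2463 to 2787. Zic1 made up 91% of the cerebellum sums, and without it the list had 2699 to 3880 units against 156 to 314. These sums without the brightest gene in cerebellum were added after the values were seen, and in the other lists they left the order of the groups as it was, overlap of the endothelial sums included. Mitosis markers had 3055 to 3370 units against 89.8 to 296, and 8 of 8 rose. Microglia markers rose in 6 of 9, with 1148 to 1458 units against 390 to 477. Endothelial and pericyte markers overlapped, with 374 to 450 units against 416 to 474, and 1 of 7 was lower. Choroid plexus markers had 150 to 176 units against 104 to 124, with 2 of 5 lower and 1 higher. The higher gene, Otx2, read 67.2, 102 and 76.2 in the tumours, against 15.1 and 8.03 in cerebellum. Otx2 made up much of the tumour sums while Ttr and Kcnj13 were lower, so the higher sum does not stand for the whole list. Among the lower markers, 3 mature granule neuron, 2 Purkinje and 1 oligodendrocyte gene had a tumour mean under the filter limit. Among the higher markers, 2 precursor, 3 mitosis and 1 choroid plexus gene had a cerebellum mean under it. The counts of these lists therefore carry no weight of their own. Over all tested genes 16.4% were lower and 10.9% higher. The part of the cell types above in the fall of Fgf12, Fgf14, Fgf1 and Fgfr3 was not tested.

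**Figure D4:**
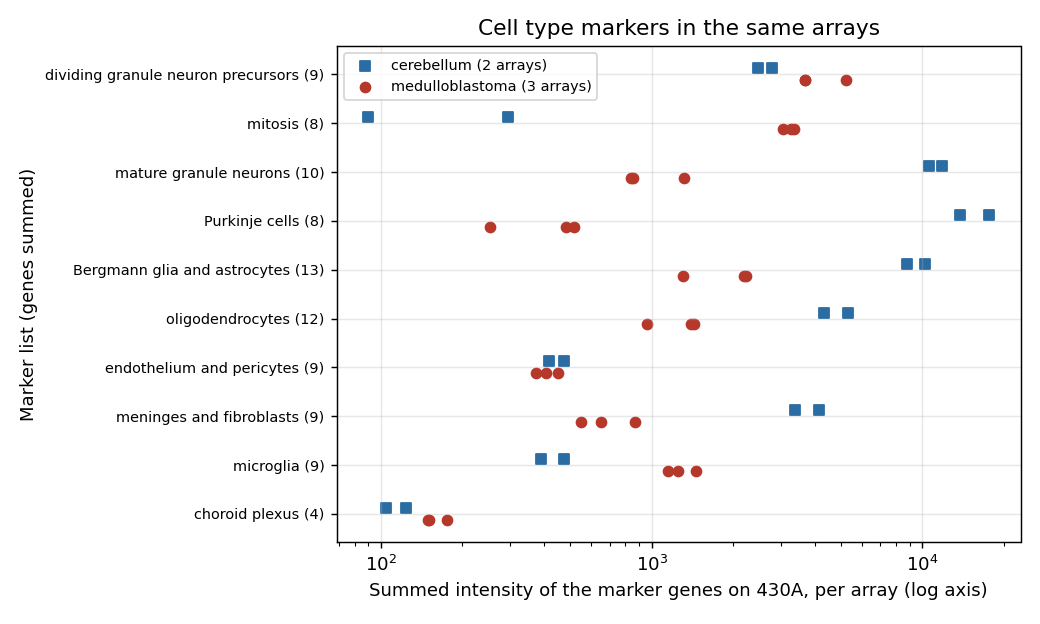
Summed intensity of the marker genes of each list on every 430A array (log axis), with the number of genes summed in brackets, blue squares for the 2 cerebellum arrays and red circles for the 3 medulloblastoma arrays. Neuronal and glial sums lie lower in all tumours, those of dividing cells and microglia lie higher, and the endothelial sums overlap. Ptgds carries most of the meningeal sum, Mbp of the oligodendrocyte sum and Zic1 of the precursor sum in cerebellum.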

How the data were processed

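RNA of medulloblastoma and cerebellum was hybridised to Affymetrix 430A and 430B arrays, 3 and 2 arrays per chip, with biotinylated cRNA per the labels' protocols. The authors deposited 1 linear intensity for each probe set of an array. How it was scaled and corrected for background is not given in the sources used. On each array 298 to 477 probe sets are listed at exactly 1. No detection call was used, and the number of arrays limits the precision.

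Intensities were transformed to log2(value + 16) with no further normalization. Probe sets among the lowest 25% by mean were left out (15.9 on 430A and 11.3 on 430B), leaving 16969 and 16883. Each chip was fitted alone with limma 3.58.1 in R 4.3.3 (lmFit, eBayes with an intensity trend, two-sided), adjusted by Benjamini-Hochberg over its tested probe sets. The titles call the replicates biological but name no animals, so the p-values measure the spread between these samples only.

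Genes came from the platform annotation. Of 22626 and 22511 probe sets, 20380 and 14661 name 1 gene, 691 and 245 several, and 1555 and 7605 are unnamed here. All member probe sets are reported. Other genes have 1 probe set each: 430A before 430B, suffixes other than _s_at and _x_at first, then the highest mean. For Etv5 its other probe sets are also given. The text names from each pathway list up to 4 called genes that changed most, and Smo, Etv4, Etv5, Sox9 and the patterning ligands were named after their values were seen. Members and lists were chosen with earlier results of these data known. Promoter windows came from the RefSeq table of GRCm38.p6, with 1 chromosome left out for the members. Windows were used for 7 of the 9 genes and none for Fgfr1 or Fgf1. Figures were drawn with matplotlib 3.10.9.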

Additional observations from a re-analysis of the deposited data

How the results depend on the processing

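Alternatives changed 1 choice at a time, 16 settings in all. On 430A between 6 and 9 member probe sets were lower and none higher in every setting. On 430B 4 were lower in every setting, and 1, Fgf9 1438718_at, was higher with the replicate block or without medulloblastoma 3. Both of these settings gave it the same log2 fold change, 0.77. Fgf12, Fgf14 other than 1449958_a_at, Fgfr3 1421841_at, Fgf1 1423136_at and Fgfr1 1425911_a_at kept direction and call in each setting where they were tested. Direction turned for values near 0: Fgf9 1420795_at had -0.0205 with the replicate block, and with 1 replicate left out it ranged from -0.0205 to 0.221, Fgfr2 1443211_at from -0.246 to 0.0276 and Fgf13 1418497_at from -0.749 to 0.00971. Pathway genes higher ranged from 6 to 12 with 1 replicate left out.

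Over all probe sets, the replicate block gave 2822 higher on 430B. Scaling on the shared probe sets gave 3360 higher on 430A and 672 on 430B. An adjusted p below 0.01 gave 1432 higher on 430A and 699 higher and 1069 lower on 430B. With 1 replicate left out, 430A had 1284 to 2800 higher and 1967 to 3743 lower, and 430B 513 to 2601 higher and 917 to 2262 lower. The highest counts came without medulloblastoma 2 on 430A and without medulloblastoma 3 on 430B, where all arrays gave 2231 and 1326 higher. Fewer arrays give less power, and a lone cerebellum array is assumed to vary like the tumours. The replicate block gave the fold changes of the fit without medulloblastoma 3, so its count on 430B is not a separate result. Why scaling or leaving out an array changed the counts was not tested.

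Same-numbered samples share only a number in the labels. Their deviations from the group means correlated at -0.0233 and 0.139 on 430A and 0.0918 and 0.0158 on 430B. The replicate block changed no member call other than that of Fgf9. Low signal limits Fgf2, Fgf13 1418498_at, Fgfr1 1436551_at, Fgfr2 1443211_at, Fgfr3 1425796_a_at and Fgf1 1441042_at, and in the tumours also Fgf14 1447480_at and 1435747_at and Fgf12 1436432_at, whose fold changes depend on the value added before the log.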
